A study of Mus musculus with 2 samples.

Results

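Basement membranes are thin sheets of matrix that underlie epithelia and endothelia and wrap muscle, nerve and fat cells. Laminins are trimers of an alpha, a beta and a gamma chain, and many are cross-shaped and polymerise at the cell surface. Laminin alpha chains bind integrins and dystroglycan through globular domains. Nidogens bridge the laminin network to the type IV collagen network, and the heparan sulfate proteoglycans perlecan and agrin tie both to growth factors and to the cell. In bone marrow, laminins surround sinusoids, arterioles and adipocytes, and the alpha 4 chain is a chain of mesenchymal and vascular basement membranes.

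The genes described here are 10 of the 20706 genes read on the arrays by a probe set of their own, taken by symbol: the laminin chains *Lama2*, *Lama4*, *Lama5*, *Lamb1*, *Lamb2* and *Lamc1*, the nidogens *Nid1* and *Nid2*, perlecan (*Hspg2*) and agrin (*Agrn*). They were named by 21 of the 45101 probe sets, 20 of which carried no other gene, and 1 probe set of *Lama5* was shared with a neighbouring transcript. RNA came from BMSC-Adipo (also labelled mMSC-Adipo) and BMSC-Osteo (mMSC-Bone), which are clonal bone marrow stromal lines of C57BL/6 mice. Each was immortalized spontaneously, and both carried Beta-actin-GFP+ and ApoE(-/-). Both were grown in the same basal DMEM without differentiation medium. The labels give 12% FBS, while the paper's methods give a lower percentage for expansion of both lines. Each line was a single clone and had 1 array, which held pooled RNA of replicate cultures, so the differentiation bias of a line cannot be told apart from other features of its clone. No spread within a line could be computed, no test of a difference was possible, and genes were compared by size. The deposited values were log2 levels from robust multiarray averaging (RMA), a method that corrects background, normalizes the arrays to each other and summarizes the probes of each set. Of several probe sets of a gene, the brightest by mean level stood for it, and the 14497 genes whose mean reached the 30th percentile (a log2 level of 4.20) were counted. Differences are in log2 units, BMSC-Adipo minus BMSC-Osteo, so that 1 is 2-fold and a negative value is a higher level in BMSC-Osteo. The fold change column in the deposited table runs the other way.

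The adipocyte markers *Pparg*, *Cebpa*, *Adipoq*, *Fabp4* and *Lpl*, the 5 of that list that passed the filter (*Cidec* did not), were all 2-fold or more higher in BMSC-Adipo. Of 7 osteoblast markers, 5 were 2-fold or more higher in BMSC-Osteo, while *Runx2* differed by 0.28 and *Dmp1* by 1.35. Of 8 endothelial markers, 5 were below the filter, *Pecam1*, *Tek* and *Tie1* among them. *Kdr* (5.71 on both arrays), *Cdh5* (4.17 in BMSC-Adipo and 4.47 in BMSC-Osteo) and *Cldn5* (4.10 and 4.33) passed. The mean log2 level of the 8 endothelial markers was 3.75 in BMSC-Adipo and 3.78 in BMSC-Osteo. Epithelial markers had a mean log2 level of 4.46 and 4.55. Of these 6 markers, 4 passed the filter, with *Epcam* highest at 7.11 in BMSC-Adipo and 6.87 in BMSC-Osteo. Of 5 blood markers with a level, 3 were below the filter, *Ptprc* among them. *Cd3e* (5.30 in BMSC-Adipo and 5.21 in BMSC-Osteo) and *Adgre1* (4.22 in both) passed. Of 7 pericyte and smooth muscle markers, *Cspg4* (a difference of -2.97) and *Cnn1* (-1.27) were at least 2-fold higher in BMSC-Osteo, and the mean log2 level of the 7 was 6.64 in BMSC-Adipo and 7.26 in BMSC-Osteo. Of the stromal markers, *Pdgfra* (2.62) and *Cxcl12* (2.48) were higher in BMSC-Adipo and *Nt5e* (-3.42) in BMSC-Osteo, and the mean log2 level of the 8 was 8.47 and 8.33. Of 6 Schwann cell and nerve markers, *S100b* (2.14) was higher in BMSC-Adipo and *Ncam1* (-2.61) in BMSC-Osteo, the other 4 lay within 2-fold, and the mean was 6.21 and 6.37. The part of these markers in the results below was not tested.

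Of the 10 genes, all of which passed the filter, 5 were at least 2-fold apart, against 14.6% of all genes tested. *Lamb1* and *Nid1* (2 genes) were at least 2-fold higher in BMSC-Adipo, where 7.88% of all genes tested were, and *Lama2*, *Lama4* and *Nid2* (3 genes) were at least 2-fold higher in BMSC-Osteo, where 6.68% were. The genes had no common direction, since 5 differences were positive and 5 negative, and their median was -0.10, beside -0.03 over all genes tested. The median size of the difference without its sign was 0.81 for the 10 genes and 0.34 for all genes tested. The order from the largest difference toward BMSC-Adipo to the largest toward BMSC-Osteo was *Nid1*, *Lamb1*, *Lamc1*, *Lamb2*, *Lama5*, *Hspg2*, *Agrn*, *Nid2*, *Lama2* and *Lama4*. With 1 array a line, no spread exists to say which neighbours in that order differ. Probe sets that read 1 gene differed from each other with a pooled SD, over 6412 genes that had 2 or more such probe sets, of 0.40, which measures probe effects and not replicate error.

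**Figure D1:**
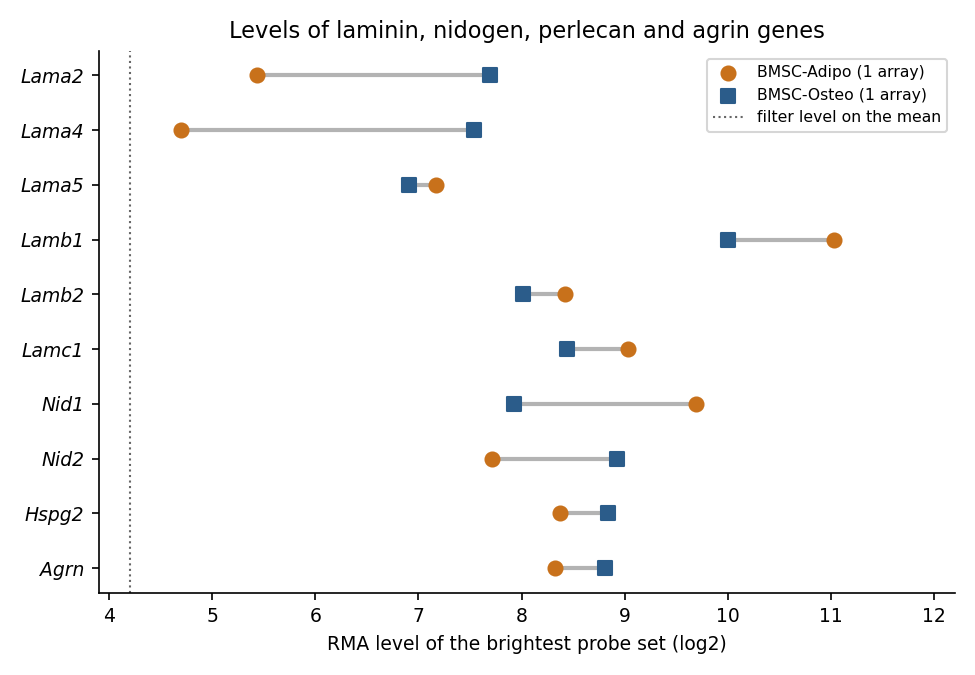
Log2 RMA level of the brightest probe set of each of the 10 genes (x axis) on the array of BMSC-Adipo (orange circles) and of BMSC-Osteo (blue squares), with a grey line joining the 2 arrays and a dotted line at the filter level of 4.20. *Lama4* has the widest gap, from 4.70 to 7.54, and *Lama5* the narrowest, from 6.91 to 7.17.

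Sequence around the start is given for genes on either side, from RefSeq on GRCm38.p6. These are *Nid1* and *Lamb1*, both higher in BMSC-Adipo, and *Lama2*, higher in BMSC-Osteo. Each window runs from 250 bases before to 50 bases after its reference start position, 5′ to 3′ on the strand of the gene. For *Nid1* that position was also the start of the annotated gene span. The span of *Lamb1* begins upstream of it, at 31265146, and that of *Lama2* reaches upstream to 27617191. Part of the *Lamb1* window before that position, and nearly all of the *Lama2* window, thus lay inside the annotated gene. Capitals mark the letters of the GC box (GGGCGG), the CCAAT box (CCAAT) and the TATA box (TATAAA), each searched on both strands, and these motifs did not overlap in the sequences shown.
Nid1, chr13:13437352-13437651, plus strand: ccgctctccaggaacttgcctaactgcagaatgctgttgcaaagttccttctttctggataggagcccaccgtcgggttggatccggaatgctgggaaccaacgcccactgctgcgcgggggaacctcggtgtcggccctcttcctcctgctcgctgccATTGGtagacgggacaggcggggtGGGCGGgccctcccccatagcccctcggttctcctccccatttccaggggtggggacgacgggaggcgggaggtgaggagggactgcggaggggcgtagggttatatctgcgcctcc
Lamb1, chr12:31265043-31265342, plus strand: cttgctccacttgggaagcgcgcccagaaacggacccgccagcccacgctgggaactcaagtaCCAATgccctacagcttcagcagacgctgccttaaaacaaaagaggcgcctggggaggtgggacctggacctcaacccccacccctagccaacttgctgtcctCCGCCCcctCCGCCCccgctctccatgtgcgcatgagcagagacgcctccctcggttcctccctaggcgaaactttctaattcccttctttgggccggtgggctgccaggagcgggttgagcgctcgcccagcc
Lama2, chr10:27616893-27617192, minus strand: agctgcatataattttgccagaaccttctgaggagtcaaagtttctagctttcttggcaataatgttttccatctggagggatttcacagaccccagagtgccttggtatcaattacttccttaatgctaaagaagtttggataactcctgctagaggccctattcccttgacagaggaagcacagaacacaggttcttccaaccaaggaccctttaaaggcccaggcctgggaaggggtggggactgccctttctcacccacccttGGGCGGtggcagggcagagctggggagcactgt
The window of *Nid1* held 1 GC box and 1 CCAAT box, and that of *Lamb1* held 2 GC boxes and 1 CCAAT box. That of *Lama2* held 1 GC box, within the last 50 bases of the window. G and C made up 64.7% of the bases for *Nid1*, 63.7% for *Lamb1* and 50.3% for *Lama2*. RefSeq windows were matched for 7 of the 10 genes, and *Agrn* had 2 windows. At least 1 GC box stood in 6 of the 7 genes (*Lamb2* had none), a CCAAT box in 2 and a TATA box in 0. Among all 32851 windows of this length, 35.7% held a GC box, 37.4% a CCAAT box and 13.6% a TATA box. The CCAAT boxes stood in *Lamb1* and *Nid1*, and 2 of 7 genes is no larger a share than that of all windows. No window was matched for *Lama4*, *Lamc1* and *Nid2*. *Lama2* was thus the only gene searched that was at least 2-fold higher in BMSC-Osteo, so motifs cannot be set against direction. These matches are descriptions of letters and not sites of binding.

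The alpha chains, which largely set which receptors a laminin binds, spanned 3.11 log2 units from *Lama4* to *Lama5*. *Lama4*, the alpha chain of laminins in mesenchymal and endothelial basement membranes, had a log2 level of 4.70 in BMSC-Adipo and 7.54 in BMSC-Osteo, a difference of -2.84, or 7.18-fold higher in BMSC-Osteo. A second probe set of *Lama4* had 3.30 in BMSC-Adipo and 6.46 in BMSC-Osteo (-3.16). Both probe sets were thus dim in BMSC-Adipo, the second under the filter level there, and brighter in BMSC-Osteo. Only 140 of the genes tested (0.97%) lay farther toward BMSC-Osteo than *Lama4*. *Lama2*, the alpha chain of muscle and peripheral nerve whose loss causes congenital muscular dystrophy, had a log2 level of 5.44 in BMSC-Adipo and 7.69 in BMSC-Osteo, a difference of -2.25 (4.77-fold), from 1 probe set. For *Lama2*, 237 genes (1.63%) lay farther on that side.

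*Lama5*, the broadly expressed alpha chain of epithelial and vascular basement membranes, did not share that pattern. Its log2 level was 7.17 in BMSC-Adipo and 6.91 in BMSC-Osteo (0.26), and a second probe set had 5.98 and 5.79 (0.19). Both of these differences lay within 2-fold. They were also smaller than the SD between probe sets of a gene, which is no measure of replicate error. The shared probe set of *Lama5* was below the filter on both arrays, at 2.90 and 2.83. Relative to *Lama5* on the same arrays, *Lama4* was 8.61-fold and *Lama2* 5.72-fold higher in BMSC-Osteo, ratios in which a constant shift between the arrays cancels. Over the probe sets past the filter level, the log2 ratio of *Lama4* to *Lama5* ran from -3.42 to -3.04, and that of *Lama2* to *Lama5* from -2.52 to -2.45.

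The beta and gamma chains, which form the rest of the trimer, leaned the other way. *Lamb1*, the beta chain of the laminins found first in the embryo and in most adult basement membranes, had a log2 level of 11.03 in BMSC-Adipo and 9.998 in BMSC-Osteo, a difference of 1.03, just past 2-fold (2.05-fold). This probe set of *Lamb1* is of the kind whose probes may also match other transcripts. Other probe sets of *Lamb1* had 8.87 against 7.74 (1.13) and 8.67 against 7.46 (1.21), so the probe sets past the filter level all put *Lamb1* slightly above 2-fold. The remaining probe set of *Lamb1* was below the filter on both arrays, at 3.16 and 2.97 (0.19). *Lamb1* lies on chromosome 12, where the median difference of the 477 genes tested was 0.33, and with that median subtracted its difference was 0.70, under 2-fold. The part of the chromosome in the difference was not tested.

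*Lamb2*, the beta chain of the kidney filter, the neuromuscular synapse and vessels, had a log2 level of 8.43 in BMSC-Adipo and 8.01 in BMSC-Osteo (0.42, 1 probe set). *Lamc1*, the gamma chain of nearly all laminins and the chain that carries the nidogen binding site, had 9.03 in BMSC-Adipo and 8.44 in BMSC-Osteo (0.59), and 7.62 and 7.48 by a second probe set (0.14). Both genes were slightly higher in BMSC-Adipo and within 2-fold. By the brightest probe sets, the beta and gamma chains lay between 0.42 and 1.03, while *Lama2* and *Lama4* lay on the other side. The ratios of *Lama2* and *Lama4* to *Lamc1* transcripts thus differed between the lines. Relative to *Lamc1*, *Lama4* was 10.8-fold and *Lama2* 7.17-fold higher in BMSC-Osteo, whereas *Lama5* differed from *Lamc1* by only -0.33 on the log2 scale. Over the probe sets past the filter level, the log2 ratio of *Lama4* to *Lamc1* ran from -3.74 to -2.99. That of *Lama2* to *Lamc1* ran from -2.84 to -2.40, and that of *Lama5* to *Lamc1* from -0.40 to 0.12. With 32 added on the linear scale, *Lama4* was at -1.91, *Lama2* at -1.66 and *Lamc1* at 0.55, so the ratios of *Lama4* and *Lama2* to *Lamc1* were smaller.

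Counted by probe set, 18 that read a gene of the group alone lay at or above the filter level. Of these, 5 (3 of *Lamb1* and 2 of *Nid1*) were 2-fold or more higher in BMSC-Adipo, where 7.8% of all 25490 such probe sets were, and 4 (2 of *Lama4* and 1 each of *Lama2* and *Nid2*) in BMSC-Osteo, where 6.43% were. For either direction the share of all such probe sets was 14.2%.

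**Figure D2:**
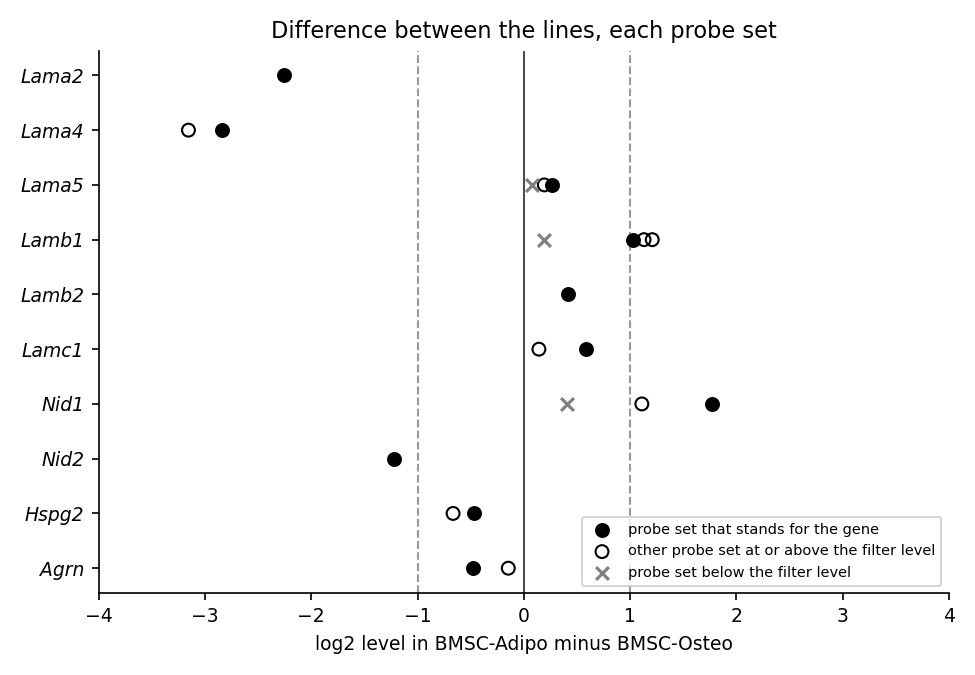
Difference between the lines (log2 level in BMSC-Adipo minus BMSC-Osteo, x axis) for each of the 21 probe sets that name a gene of the group. Filled circles are the probe set standing for the gene, open circles other probe sets at or above the filter level, crosses those below it, and dashed lines mark 2-fold; no gene has probe sets on both sides of 0.

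The nidogens, paralogous linkers between laminin and type IV collagen, differed in opposite directions. *Nid1* had a log2 level of 9.69 in BMSC-Adipo and 7.92 in BMSC-Osteo, a difference of 1.77 (3.41-fold), and a second probe set had 8.36 and 7.25 (1.11). The third probe set of *Nid1* was below the filter on both arrays, at 2.79 and 2.38 (0.41). *Nid1* was therefore at least 2-fold higher in BMSC-Adipo by both probe sets past the filter level, but by 3.41-fold or by 2.16-fold depending on the set. *Nid2*, which can partly replace *Nid1* in mice, had 7.71 in BMSC-Adipo and 8.93 in BMSC-Osteo, a difference of -1.22 (2.32-fold), from 1 probe set. Relative to *Nid2* on the same arrays, *Nid1* was 7.92-fold higher in BMSC-Adipo, and the log2 ratio was 2.99 or 2.33 depending on the probe set of *Nid1*. Of the genes tested, 414 (2.86%) lay farther toward BMSC-Adipo than *Nid1*, and 684 (4.72%) lay farther toward BMSC-Osteo than *Nid2*.

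Perlecan and agrin, the proteoglycans of the group, were both slightly higher in BMSC-Osteo and within 2-fold. *Hspg2*, which encodes perlecan, a multidomain core protein of basement membranes and cartilage, had a log2 level of 8.37 in BMSC-Adipo and 8.84 in BMSC-Osteo (-0.47), and 7.29 and 7.95 by a second probe set (-0.67). *Agrn*, which encodes agrin, the organizer of the neuromuscular synapse and a ligand of dystroglycan, had 8.32 in BMSC-Adipo and 8.80 in BMSC-Osteo (-0.48), and 4.40 and 4.55 by a dimmer probe set (-0.15). The differences of *Hspg2* and *Agrn* were 0.01 log2 units apart by these probe sets, and up to 0.52 apart by the others. Both genes lie on chromosome 4, where the median difference of the 863 genes tested was -0.32, and with it subtracted *Hspg2* was at -0.15 and *Agrn* at -0.16. The part of the chromosome was not tested here either. Which splice form of *Agrn* the lines make cannot be read from these probe sets.

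**Figure D3:**
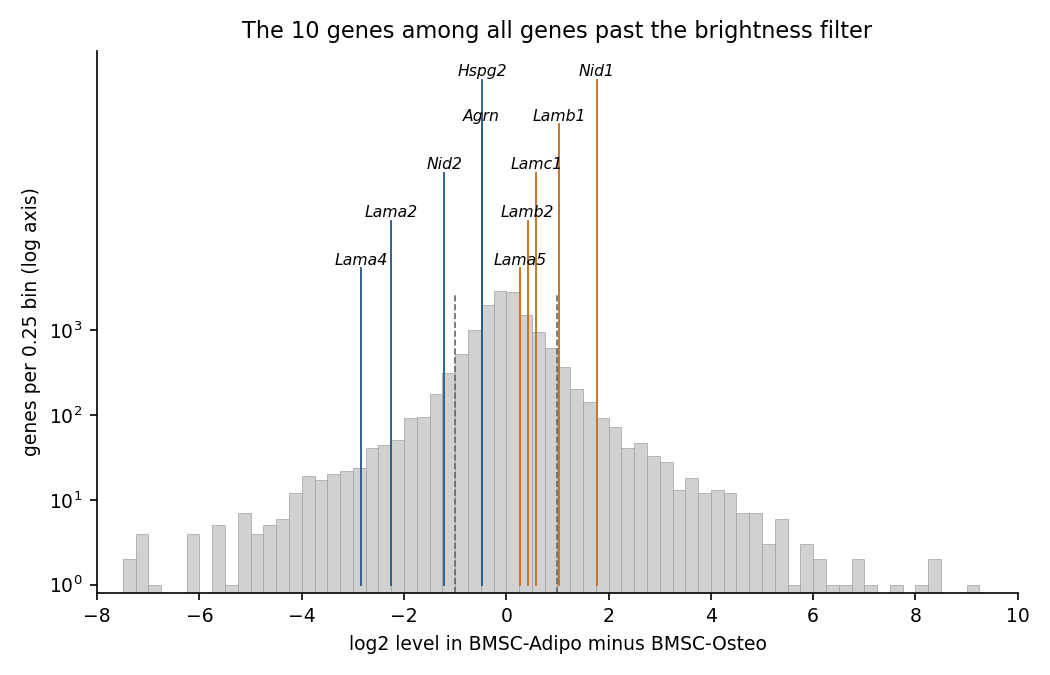
Distribution of the difference (log2 level in BMSC-Adipo minus BMSC-Osteo, x axis) over all 14497 genes tested, in bins 0.25 wide with the number of genes on a log axis. Lines mark the 10 genes, blue where higher in BMSC-Osteo and orange where higher in BMSC-Adipo, and dashed lines mark 2-fold; *Lama4*, *Lama2* and *Nid2* lie beyond 2-fold on the left, and *Lamb1* and *Nid1* on the right.

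The counts in the related lists that follow stand beside 7.88% of all genes tested for BMSC-Adipo and 6.68% for BMSC-Osteo. Of 5 other laminin chain genes, 3 passed the filter, and *Lama1*, the alpha chain of the early embryo, was the only one at least 2-fold apart. It had a log2 level of 5.23 in BMSC-Adipo and 7.04 in BMSC-Osteo (-1.81), from 1 probe set. *Lamc3* (-0.54), a gamma chain of restricted distribution, lay within 2-fold at levels near the filter, and the median of the list was -0.54. *Lama1*, *Lama2* and *Lama4* were thus the alpha chain genes at least 2-fold apart, all higher in BMSC-Osteo. *Lama2* and *Lama4* both lie on chromosome 10, where the median difference of the 661 genes tested was 0.24. With that median subtracted, *Lama2* was at -2.50 and *Lama4* at -3.09, and the part of the chromosome was not tested. Among 8 network and anchoring collagen genes past the filter, *Col4a1* (0.76) and *Col4a2* (0.81), the ubiquitous chains of the type IV collagen network to which nidogens bind, were higher in BMSC-Adipo but within 2-fold. Only *Col7a1* (-1.16), the anchoring fibril collagen, was at least 2-fold higher in BMSC-Osteo, 0 genes were so in BMSC-Adipo, and the median of the 8 was -0.21.

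Receptors stood on both sides. Of the 17 receptor genes that passed the filter, 3 lay 2-fold or more toward BMSC-Adipo, namely the integrin subunits *Itga1* (1.68), which binds collagen and laminin, and *Itga6* (1.14), which binds laminin, and the syndecan *Sdc1* (1.32). On the other side stood 4 genes, the phosphatase *Ptprf* (-4.44), for which a laminin-nidogen complex is a reported ligand, the agrin receptor *Lrp4* (-1.49), the syndecan *Sdc3* (-1.26) and the muscle laminin receptor *Itga7* (-1.20). Common subunits lay within 2-fold, with *Itgb1* at 0.06 and dystroglycan (*Dag1*) at 0.24, and the agrin coreceptor *Musk* was below the filter. The median of the receptors was -0.10. Of 18 enzymes that build the laminin-binding sugar of dystroglycan, 17 lay within 2-fold, *Gmppb* (-1.15) was the exception, and the median was 0.03.

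Other basement membrane proteins stood on both sides too. Of the 12 that passed the filter, 4 lay 2-fold or more toward BMSC-Adipo, namely *Ntn4* (1.95), a netrin that binds laminin gamma chains, *Matn2* (1.80), the fibulin *Fbln1* (1.41) and *Smoc2* (1.14), and 3 were so in BMSC-Osteo, namely the fibulin *Fbln2* (-2.96), *Tinagl1* (-1.18) and *Ntn1* (-1.18), and the median was -0.18. *Fbln1* and *Fbln2* thus differed in opposite directions, as the nidogens did, while the fibulin family as a whole was not examined. A second probe set of *Ntn4* differed by only 0.87, one of *Ntn1* by -0.72 and one of *Fbln1* by 0.47. The log2 levels of *Ntn4* in BMSC-Osteo (4.37) and of *Tinagl1* in BMSC-Adipo (4.88) were not far above the filter level.

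Heparan sulfate, the sugar chain of perlecan and agrin, is built and trimmed by enzymes of which 20 passed the filter. *Sulf2* (1.19) and *Ndst2* (1.13) were at least 2-fold higher in BMSC-Adipo, and *Sulf1* (-3.57), *Glce* (-2.53) and *Hs3st1* (-1.94) in BMSC-Osteo, with a median of -0.21. *Sulf1* and *Hs3st1* passed the filter through BMSC-Osteo only, with log2 levels of 3.43 and 3.39 in BMSC-Adipo, under the filter level, so the sizes of their differences rest on dim values. *Sulf1* and *Sulf2*, extracellular sulfatases that remove 6-O-sulfate groups, lay on opposite sides, although another probe set of *Sulf2* differed by only 0.07. Among 11 proteases and heparanase genes past the filter, *Mmp3* (1.87) was at least 2-fold higher in BMSC-Adipo, and the gelatinase *Mmp9* (-2.46) and the plasminogen activator *Plat* (-1.01) in BMSC-Osteo, with a median of -0.25. *Mmp3* had 1 probe set, with a log2 level of 4.60 in BMSC-Osteo, not far above the filter level. Heparanase (*Hpse*), which cuts these chains, was at -0.74 near the filter level.

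**Figure D4:**
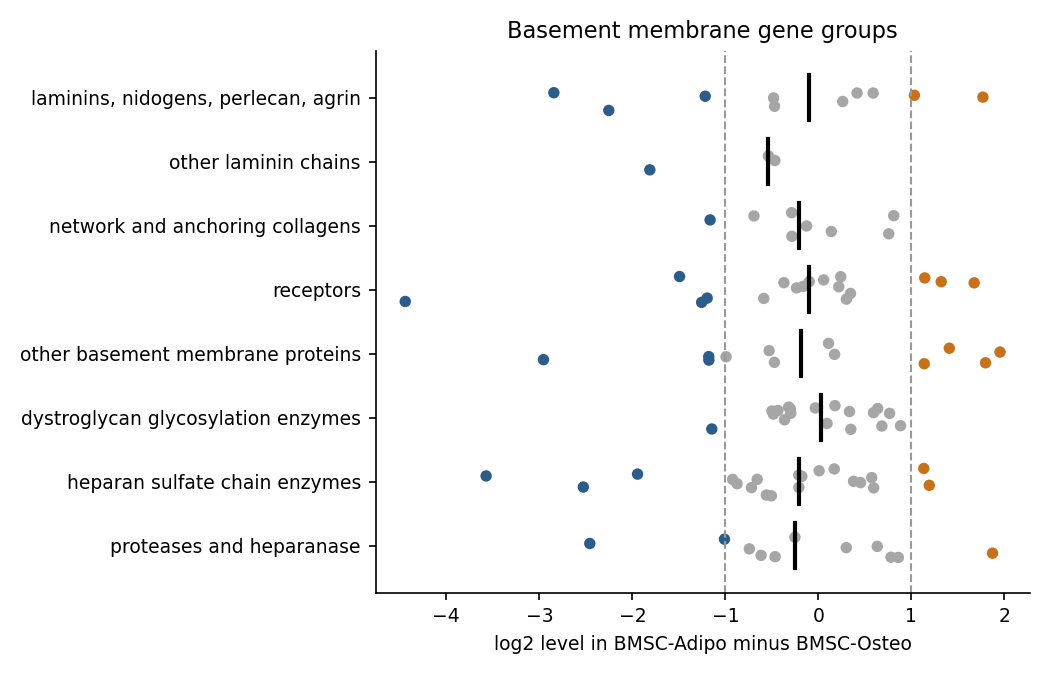
Difference (log2 level in BMSC-Adipo minus BMSC-Osteo, x axis) of each gene past the filter in the 10 genes and in 7 related lists. Each point is a gene, orange if at least 2-fold higher in BMSC-Adipo, blue if at least 2-fold higher in BMSC-Osteo and grey otherwise, vertical bars are list medians, and dashed lines mark 2-fold; every median lies between -0.54 and 0.03.

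All 10 genes carried the basement membrane category in the annotation of the deposited table, a set that the choice of genes by symbol did not use and that was examined after their values were known. Of the 63 other genes tested in that category, 7 (11.1%) were at least 2-fold higher in BMSC-Adipo, beside 7.88% of all genes tested. In BMSC-Osteo, 14 (22.2%) were at least 2-fold higher, beside 6.68% of all genes tested. Their median difference was -0.21 and their median size without sign was 0.52, beside 0.81 for the 10 genes. *Lama4* had the third lowest difference of the 73 genes in the category, and *Nid1* the fourth highest, after *Ntn4*, *Matn2* and *Efna5*.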

How the data were processed

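The authors deposited log2 levels of 45101 probe sets on 2 Affymetrix arrays, made from 8 ug of RNA per array by RMA with the oligo package, with no version or genome build named in the labels or the paper's methods. The files hold no detection calls. The number of arrays limits the precision. The deposited log2 fold change column was not used. Control probe sets (64), probe sets with no gene (5368) and probe sets naming several genes (1479) were left out, which left 38190, and chromosomes came by Entrez ID from RefSeq (GRCm38.p6) for 94.7% of genes tested. All 10 genes and all genes of the 7 lists that passed the size rule are named. The members, lists and tests were chosen with earlier results of these data known. Alternatives were the mean or the dimmest of a gene's probe sets, no filter or the 50th percentile, subtraction of the median or a loess curve (span 0.3), 32 added on the linear scale, the series matrix, and size rules of 1.5-fold and 4-fold, and, chosen after the values were seen, subtraction of chromosome medians. Counting was tested on simulated data with planted differences. Calculations used Python 3.11.15, numpy 2.4.6, pandas 2.3.3 and statsmodels 0.14.6, and plots matplotlib 3.10.9.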

Additional observations from a re-analysis of the deposited data

How the results depend on the processing

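Another filter cannot change a gene's own difference, nor can the choice of probe set where a gene has 1, and the series matrix held the same values, so 36 of 90 recomputed differences of the 10 genes could not shift. The other 54 kept their sign, and 48 of them shifted by no more than 0.40, the SD between probe sets of a gene. *Nid1* became 1.10 with the mean of its probe sets, and *Nid1*, *Lamb1* and *Lamc1* became 0.41, 0.19 and 0.14 with the dimmest probe set. *Lama2* and *Lama4* became -1.66 and -1.91 with 32 added, beside 0.21 for *Lama5* and 0.55 for *Lamc1*. The ratios of *Lama2* and *Lama4* to *Lama5* and *Lamc1* were thus smaller with 32 added. The files hold no background signal, so how far dim levels, such as that of *Lama4* in BMSC-Adipo, lie above background is unknown. The cause of the shifts below was not tested, except that fewer genes pass a stricter filter. A median counted as shifted when it moved by more than the SD between probe sets over the square root of the number of genes, and a count beyond 1.5 times.

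Of the 10 genes, the number at least 2-fold higher in BMSC-Adipo was 2, but 1 with the mean of probe sets (*Nid1*), 1 with chromosome medians subtracted (chosen after the values were seen), and 0 under a 4-fold rule. Their median was 0.17 with chromosome medians subtracted. With the dimmest probe set, *Lamb1* and *Nid1* fell below the filter, and of the 8 genes left 0 were at least 2-fold higher in BMSC-Adipo and the median was -0.41. The count toward BMSC-Osteo did not shift beyond 1.5 times under any of these.

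With the mean of probe sets, the medians were -0.44 for other basement membrane proteins, -0.082 for heparan sulfate enzymes and -0.081 for proteases, with 1 heparan sulfate enzyme toward BMSC-Adipo and 1 protease toward BMSC-Osteo. With the dimmest probe set, other basement membrane proteins had 2 toward BMSC-Adipo, 1 toward BMSC-Osteo and a median of -0.053, heparan sulfate enzymes had 1 toward BMSC-Osteo and a median of 0.071, proteases had 1 toward BMSC-Osteo and a median of 0.040, and 1 collagen lay toward BMSC-Adipo. With the filter at the 50th percentile, *Lama1* alone of the other laminin chains was left (-1.81), 0 collagens and 1 heparan sulfate enzyme lay toward BMSC-Osteo, 0 proteases lay toward BMSC-Adipo, and the medians were -0.085 for heparan sulfate enzymes and 0.30 for proteases. With 32 added, the medians were -0.25 for other laminin chains and -0.11 for proteases, and 0 collagens, 1 other basement membrane protein and 1 protease lay toward BMSC-Osteo, the last also with the median difference subtracted. With chromosome medians subtracted, the medians were -0.40 for collagens and -0.31 for other basement membrane proteins, and 1 heparan sulfate enzyme lay toward BMSC-Adipo.

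No paired analysis was possible because each line had 1 array.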
